A study of Mus musculus with 9 samples.

Results

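The genes described here encode the enzymes that build cholesterol and long fatty acids, together with the proteins that switch those enzymes on, and their RNA was followed with age in hair follicle stem cells. They were 33 genes chosen by symbol, and the deposited table held 34 of its 37980 rows under those symbols. RNA came from keratinocytes sorted from the skin of the back and belly of male C57BL/6J mice as CD49f High CD34+ cells, the surface profile of basal stem cells in the follicle bulge. Mice were 3, 19 or 24 months old, and each age had 3 libraries: replicates 1, 2 and 3 at 3 and 19 months, and replicates 2, 3 and 4 at 24 months. No group carried a transgene or a treatment by the labels, and only 1 sex and 1 strain were sampled. No label ties a library to an animal, so the p-values below rest on the spread among libraries of an age, which may be no more than technical.

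Cells make cholesterol from acetyl-CoA. The mevalonate pathway first builds farnesyl diphosphate, which is joined into squalene, folded into lanosterol and trimmed to cholesterol. Fatty acids start from the same acetyl-CoA: acetyl-CoA carboxylase and fatty acid synthase make palmitate, and elongases and desaturases lengthen it and add double bonds. Both branches are driven by the SREBP transcription factors, which Scap escorts out of the endoplasmic reticulum when sterols are low and which the Insig proteins hold back when sterols are high. In skin these lipids feed membranes, the water barrier and, in the sebaceous glands that open into each follicle, sebum.

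SREBP factors are known to act on promoters beside the factor NF-Y, which binds the letters CCAAT, so the DNA just before the start sites is shown for 6 genes of both branches described below, chosen after their values were seen. RefSeq promoter sequences (GRCm38.p6, 250 bases before the start site) are printed in the direction of the gene, with CCAAT, or ATTGG where it lies on the other strand, in capitals. No capitals appear in Elovl6 and Acaca, where neither run of letters was found in the printed stretch. Whether the RefSeq start sites, that of Acaca among them, are those used in these cells was not tested. Fasn is at chr11:120824548-120824797 on the minus strand, Elovl5 at chr9:77917115-77917364 on the plus strand, Nsdhl at chrX:72918271-72918520 on the plus strand and Sc5d at chr9:42264301-42264550 on the minus strand. Elovl6 is at chr3:129532136-129532385 and Acaca at chr11:84195188-84195437, both on the plus strand.
Fasn: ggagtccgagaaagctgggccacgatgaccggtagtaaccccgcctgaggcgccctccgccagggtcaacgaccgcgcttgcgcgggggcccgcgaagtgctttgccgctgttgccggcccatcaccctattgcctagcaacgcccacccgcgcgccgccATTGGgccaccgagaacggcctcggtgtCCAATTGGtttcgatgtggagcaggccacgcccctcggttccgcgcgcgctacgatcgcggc
Elovl5: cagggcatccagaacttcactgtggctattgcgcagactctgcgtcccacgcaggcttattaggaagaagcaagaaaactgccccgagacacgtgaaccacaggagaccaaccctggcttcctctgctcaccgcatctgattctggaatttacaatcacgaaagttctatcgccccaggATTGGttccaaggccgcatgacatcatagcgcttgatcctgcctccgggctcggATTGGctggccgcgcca
Nsdhl: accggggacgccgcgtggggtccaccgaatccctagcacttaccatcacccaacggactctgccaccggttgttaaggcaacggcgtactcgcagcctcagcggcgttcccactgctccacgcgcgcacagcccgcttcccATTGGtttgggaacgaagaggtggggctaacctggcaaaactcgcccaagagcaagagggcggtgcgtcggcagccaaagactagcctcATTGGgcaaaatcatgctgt
Sc5d: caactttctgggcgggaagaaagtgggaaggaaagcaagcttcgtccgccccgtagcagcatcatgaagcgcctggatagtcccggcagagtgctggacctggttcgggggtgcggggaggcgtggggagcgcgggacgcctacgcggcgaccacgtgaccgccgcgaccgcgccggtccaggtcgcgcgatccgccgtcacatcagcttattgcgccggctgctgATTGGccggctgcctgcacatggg
Elovl6: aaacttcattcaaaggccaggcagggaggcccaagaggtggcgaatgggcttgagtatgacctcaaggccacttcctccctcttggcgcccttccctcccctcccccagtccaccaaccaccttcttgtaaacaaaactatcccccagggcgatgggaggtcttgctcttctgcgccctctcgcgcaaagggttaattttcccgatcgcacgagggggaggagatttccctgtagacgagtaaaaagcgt
Acaca: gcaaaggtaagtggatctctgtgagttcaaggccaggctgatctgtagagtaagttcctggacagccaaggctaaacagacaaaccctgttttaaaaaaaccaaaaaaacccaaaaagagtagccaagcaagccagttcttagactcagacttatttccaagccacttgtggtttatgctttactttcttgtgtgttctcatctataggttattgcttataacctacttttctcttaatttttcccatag

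Counting back from the start site, the matches begin at -90, -62 and -59 in Fasn, where the last pair overlap, at -71 and -17 in Elovl5, at -109 and -20 in Nsdhl, and at -24 in Sc5d. RefSeq entries were matched for 27 of the 33 genes, with 37 windows of 300 bases that also take in 50 bases after the start. CCAAT on either strand was in 24 of the 37 windows, and in 37.4% of the 32851 windows of all genes. GGGCGG, the GC box of Sp1, was in 27 of the 37 against 35.7% of all windows, and CACGTG, an E-box, in 7 of the 37 against 7.15%. TCACNCCAC, a form of the sterol regulatory element to which SREBPs bind, was in 1 window, that of Hmgcs1, as TCACCCCAC from -137 to -129, against 1.24% of all windows. A letter match is not a bound site, and a missing one says only that those letters are not in the window.

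Measured levels spanned a wide range. FPKM, the unit of the table, counts sequenced fragments relative to the length of the transcript and to the size of the library, so it can be compared between genes. Elovl1, an elongase for very long saturated chains, had the highest mean over the 9 libraries at 124 FPKM, followed by Fdps at 63.8, Ebp at 61.3 and Pmvk at 57.3 FPKM. The lowest of the genes tested were Stard4 at 4.37, Mvd at 4.16 and Acss2 at 3.11 FPKM. Fads2, the desaturase that opens the path to polyunsaturated fatty acids, lay between 0.0198 and 0.645 FPKM and was too low to test. Hmgcs1, which makes the precursor of mevalonate, had 2 rows, both listed at 0 in all 9 libraries. Neither identifier of those rows was in the reference annotation, and an exact 0 can be a failed estimate in such a table, so nothing is said of its level.

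The remaining 31 genes passed the filter of at least 1 FPKM in at least 3 libraries. Each age comparison was tested with limma on log2(FPKM + 1) in a fit of 11509 protein-coding genes, with p-values adjusted over all of them and a threshold of 0.05. Log2 changes below are on that scale, which understates changes of low genes, and carry limma's standard errors (SE). The 19- and 24-month comparisons with 3 months share the 3-month libraries. Because this choice of genes was made with results known, the adjusted p from a fit of all 14275 filtered table entries is given beside each call of a lipid gene. In that wider fit 0 of the 31 genes passed in any comparison, where 0.280% of entries passed at 19 against 3 months, 0.203% at 24 against 3 months, 0.0490% at 24 against 19 months and 0.224% by an F test.

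Fasn, fatty acid synthase, fell between 3 and 24 months, and no other of the 31 genes passed a pairwise comparison. At 24 against 3 months 3.84% of all genes tested passed, 1.50% higher and 2.34% lower, so 1 of 31 is near the background. At 19 against 3 months 0 of 31 passed, against 1.56% of all genes (0.600% higher and 0.964% lower), and at 24 against 19 months 0 of 31, against 0.930% (0.712% higher and 0.217% lower). Unadjusted limma p-values under 0.05 were found for 10 of the 31 genes at 19 against 3 months, 9 at 24 against 3 and 10 at 24 against 19 months, or 32.3%, 29.0% and 32.3%, beside 15.7%, 21.6% and 12.8% of all genes. With libraries centred on their median gene, the split of all genes called moved from 69 higher and 111 lower to 89 and 91 at 19 against 3 months, and from 173 and 269 to 216 and 190 at 24 against 3 months. An F test for a difference at any age called 3 of 31, Fasn, Fdps and Scd2, against 4.54% of all genes.

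Fasn stood at 16.1, 20.0 and 25.95 FPKM at 3 months, at 11.9, 16.6 and 13.9 FPKM at 19 months, and at 10.7, 10.01 and 5.53 FPKM at 24 months. Every 24-month library lay below every library of the younger ages, while 19-month replicate 2 lay above 3-month replicate 1. The means were 20.7 ± 4.96, 14.1 ± 2.36 and 8.74 ± 2.80 FPKM (SD, n = 3 each). From 3 to 24 months Fasn fell by 1.18 ± 0.22 on the log2 scale (limma adjusted p = 0.0109, and 0.0886 in the fit of all table entries). Leaving out each library in turn kept this call in 9 of 9 limma fits, with adjusted p from 0.00878 to 0.0482. The log2 difference was -0.51 ± 0.22 at 19 against 3 months (limma adjusted p = 0.289) and -0.67 ± 0.22 at 24 against 19 months (limma adjusted p = 0.200), the latter -0.40 without 24-month replicate 4. In the F test the limma adjusted p was 0.0204 (0.152 in the fit of all table entries), and it missed the threshold without 3-month replicate 2 (0.0687), 3-month replicate 3 (0.0605) or 24-month replicate 4 (0.0691). In bulk RNA, fewer cells that express a gene and less RNA per cell cannot be told apart.

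**Figure D1:**
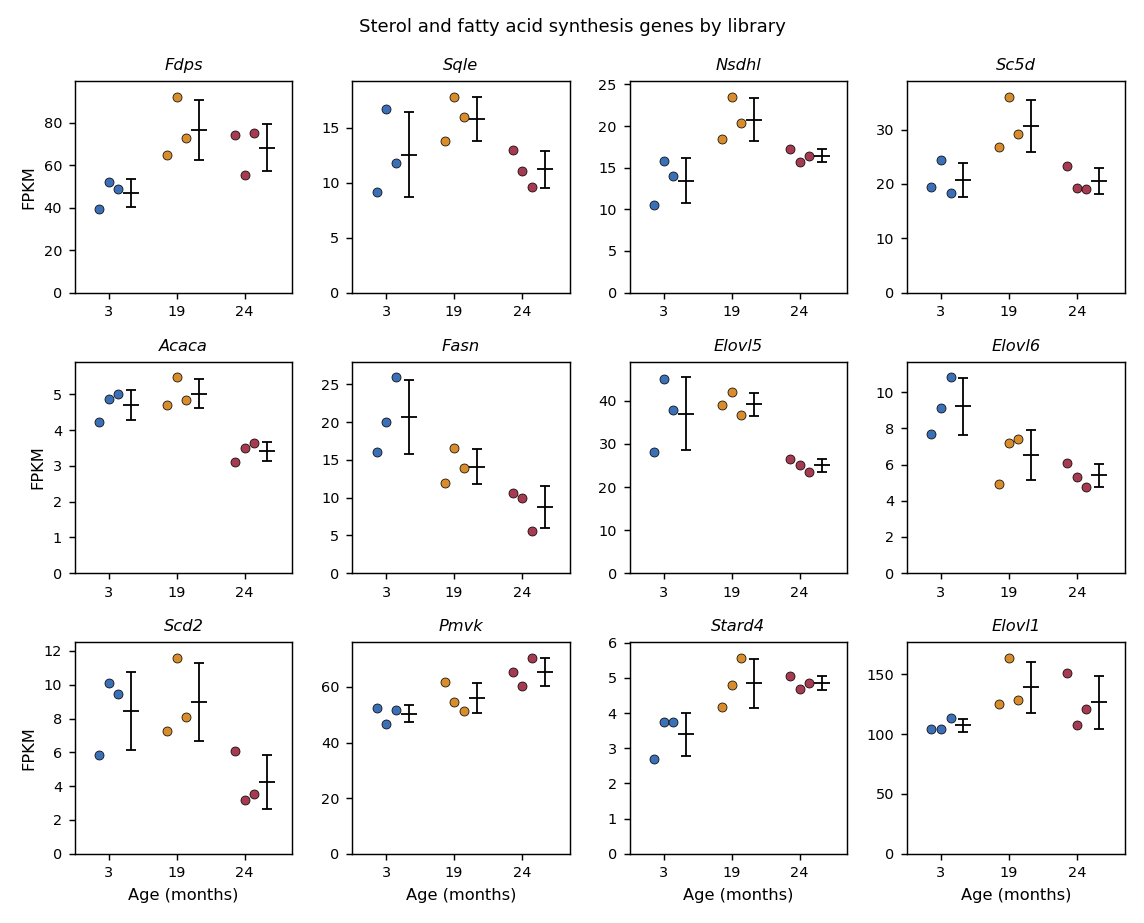
FPKM (vertical axis, from 0, with a range of its own in each panel) against age in months for 12 genes. Each point is 1 library, and bars are the mean ± SD of 3 libraries. The 24-month points of Fasn, Acaca and Elovl5 lie below all younger points, while those of Fdps, Pmvk and Stard4 lie above all 3-month points.

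Acaca, the acetyl-CoA carboxylase that makes malonyl-CoA for Fasn, had its lowest values at the same age. It stood at 4.24, 4.88 and 5.02 FPKM at 3 months, 4.72, 5.48 and 4.85 FPKM at 19 months and 3.098, 3.49 and 3.63 FPKM at 24 months. All 24-month libraries were below all others, with log2 differences of -0.37 ± 0.16 from 3 months (limma adjusted p = 0.192) and -0.45 ± 0.16 from 19 months (limma adjusted p = 0.233). The suppliers of acetyl-CoA and NADPH did not share that order. Acly, which splits citrate into acetyl-CoA, had means of 40.0, 43.5 and 40.2 FPKM at 3, 19 and 24 months, and Acss2, which activates acetate, of 2.86, 3.02 and 3.46 FPKM. Me1, the malic enzyme that supplies NADPH, was higher in every 24-month library than in any 19-month library, as were 7.94% of all genes, with a log2 difference of 0.44 ± 0.18 (limma adjusted p = 0.315).

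Among elongases and desaturases, 4 of the 5 genes tested had a negative log2 change at 24 against 3 months, with a median of -0.52. Over all genes 49.5% were positive, with a median of -0.00. Unadjusted limma p was under 0.05 for 3 of the 5, against 21.6% of all genes, and none passed a pairwise test after adjustment. Scd2, which puts a double bond into stearate, was at 5.84, 10.1 and 9.43 FPKM at 3 months, at 7.25, 11.6 and 8.11 FPKM at 19 months and at 6.11, 3.16 and 3.54 FPKM at 24 months. All 24-month libraries were below those of 19 months, but 24-month replicate 2 lay above 3-month replicate 1. Scd2 passed the F test (limma adjusted p = 0.04998, and 0.204 in the fit of all table entries), with leave-one-out values from 0.0219 to 0.192 and the call kept in 3 of 9 fits. Its log2 difference was -0.86 ± 0.24 from 3 months (limma adjusted p = 0.0605) and -0.94 ± 0.24 from 19 months (limma adjusted p = 0.0837). The F call of Scd2 was lost when 3-month replicate 2 or 3, 19-month replicate 2 or 3, or 24-month replicate 3 or 4 was left out.

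Elovl5, an elongase of polyunsaturated fatty acids, was at 28.2, 45.0 and 38.0 FPKM at 3 months, at 39.0, 42.0 and 36.7 FPKM at 19 months and at 26.6, 25.1 and 23.6 FPKM at 24 months. Its 24-month libraries were the lowest of all 9. The log2 difference was -0.52 ± 0.16 from 3 months (limma adjusted p = 0.0771) and -0.63 ± 0.16 from 19 months (limma adjusted p = 0.0837), with an F test at 0.0559. Elovl6, which extends palmitate to stearate, stood at 7.67, 9.16 and 10.8 FPKM at 3 months, 4.94, 7.21 and 7.42 FPKM at 19 months and 6.09, 5.33 and 4.78 FPKM at 24 months. Every older library was below every 3-month library, by -0.45 ± 0.18 at 19 months (limma adjusted p = 0.254) and -0.67 ± 0.18 at 24 months (limma adjusted p = 0.0557). Elovl1 had the other direction, with means of 107 ± 5.48, 139 ± 21.4 and 127 ± 22.2 FPKM and all 19-month libraries above all 3-month libraries (log2 difference 0.36 ± 0.15, limma adjusted p = 0.252). Fads1, the desaturase that makes arachidonate, had means of 8.18, 5.73 and 7.64 FPKM with overlapping libraries.

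Of the 15 cholesterol enzymes tested, 10 had their highest mean at 19 months and 8 their lowest at 24 months. Over all genes tested 31.3% had their highest mean at 19 months and 36.2% their lowest at 24 months, and of the 10 fatty acid enzymes 5 and 6 did. A difference between the branches was not tested. The count of 10 sterol enzymes ranged from 8, without 3-month replicate 1, to 12, without 19-month replicate 3 or with median-centred libraries. At 19 against 3 months 11 of 15 sterol enzymes had a positive log2 change, with a median of 0.20 (all genes, 50.7% positive and a median of 0.01). That median was 0.34 without 3-month replicate 2 and 0.13 without 3-month replicate 3. In 4 of them all 19-month libraries were above all 3-month libraries (Fdps, Nsdhl, Ebp and Sc5d, against 11.0% of all genes). At 24 against 19 months 13 of 15 had a negative change, with a median of -0.29 (all genes, 46.7% positive and a median of -0.02). In 6 of these every 24-month library was below every 19-month library (Idi1, Sqle, Cyp51, Nsdhl, Hsd17b7 and Sc5d, against 10.4% of all genes). At 24 against 3 months the signs were mixed, 6 positive and 9 negative, and the median of -0.12 became 0.09 without 3-month replicate 2 and -0.22 without 24-month replicate 2. No sterol enzyme passed limma's pairwise tests after adjustment. At 19 against 3, 24 against 3 and 24 against 19 months 4, 2 and 5 of 15 had unadjusted p under 0.05. These were 26.7%, 13.3% and 33.3%, against 15.7%, 21.6% and 12.8% of all genes.

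**Figure D2:**
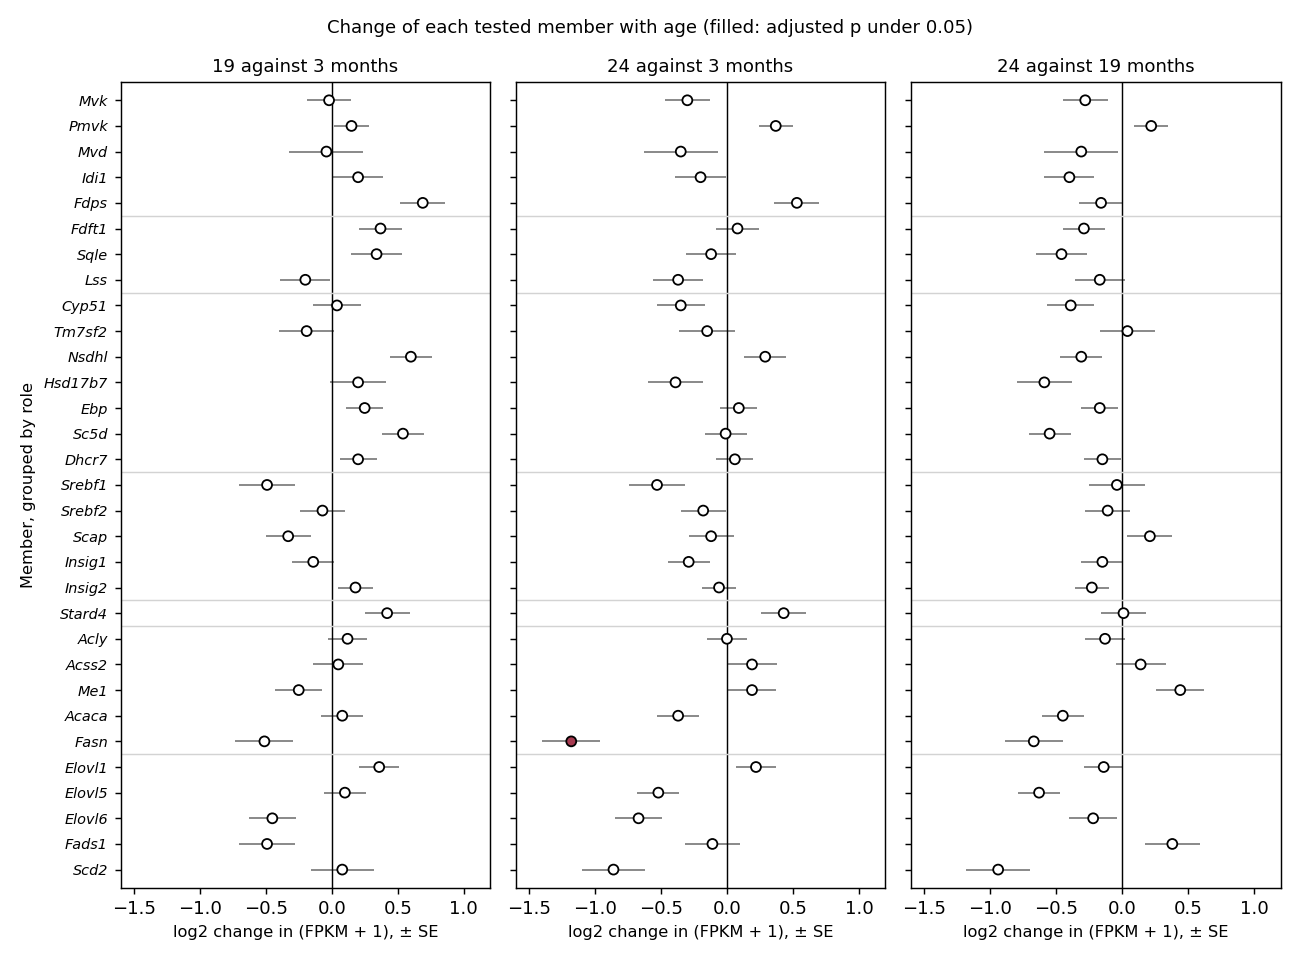
Log2 change in (FPKM + 1) with its SE (horizontal axis) for the 31 genes tested, grouped by role from the mevalonate steps at the top to the elongases and desaturases at the bottom, in 3 comparisons. Most sterol enzymes lie right of 0 at 19 against 3 months and left of 0 at 24 against 19 months. Only Fasn at 24 against 3 months is filled, for an adjusted p under 0.05.

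In the mevalonate steps, Fdps, which assembles farnesyl diphosphate, had the clearest separation. It stood at 39.3, 51.95 and 48.9 FPKM at 3 months, at 64.5, 92.1 and 72.8 FPKM at 19 months and at 74.1, 55.4 and 75.1 FPKM at 24 months. All older libraries were above all 3-month libraries, and the 2 older ages overlapped. The means were 46.7 ± 6.58, 76.5 ± 14.2 and 68.2 ± 11.1 FPKM (SD, n = 3 each). Fdps passed the F test (limma adjusted p = 0.0487, and 0.189 in the fit of all table entries), with leave-one-out values from 0.0317 to 0.164 and the call kept in 2 of 9 fits, those without 19-month replicate 1 or 24-month replicate 3. Its log2 difference was 0.69 ± 0.17 at 19 against 3 months (limma adjusted p = 0.0506) and 0.53 ± 0.17 at 24 against 3 months (limma adjusted p = 0.0853).

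Pmvk, phosphomevalonate kinase, was at 52.4, 46.8 and 51.9 FPKM at 3 months, 61.8, 54.5 and 51.5 FPKM at 19 months and 65.5, 60.4 and 70.4 FPKM at 24 months. Its 24-month libraries were all above those of 3 months, by a log2 difference of 0.37 ± 0.13 (limma adjusted p = 0.112). Mvk, mevalonate kinase, had means of 21.5, 21.1 and 17.6 FPKM, Mvd, the decarboxylase that follows Pmvk, of 4.49, 4.48 and 3.51 FPKM, and Idi1, which isomerises isopentenyl diphosphate, of 5.83, 6.75 and 4.90 FPKM. All 3 had their lowest mean at 24 months, with log2 differences from 3 months between -0.35 and -0.20.

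From farnesyl diphosphate to lanosterol, Sqle, squalene epoxidase, a rate-controlling oxidation, stood at 9.18, 16.7 and 11.8 FPKM at 3 months, 13.8, 17.8 and 15.9 FPKM at 19 months and 13.0, 11.03 and 9.62 FPKM at 24 months. Its 24-month libraries were below those of 19 months (log2 difference -0.46 ± 0.19, limma adjusted p = 0.326), while the 3-month libraries spread across both. Fdft1, squalene synthase, had means of 32.9 ± 7.14, 42.5 ± 5.15 and 34.6 ± 4.12 FPKM. Lss, which closes the rings of lanosterol, had means of 13.5 ± 1.01, 11.8 ± 3.17 and 10.3 ± 2.19 FPKM and all 24-month libraries below those of 3 months (log2 difference -0.37 ± 0.19, limma adjusted p = 0.278).

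On the path from lanosterol to cholesterol, the 19-month libraries of Nsdhl and Sc5d overlapped neither other age. Of all genes, 11.0% had every 19-month library above those of 3 months, and 10.4% every 24-month library below those of 19 months. The share with both was not counted, and neither gene passed a test in the protein-coding fit. Nsdhl, a dehydrogenase that helps remove methyl groups, was at 10.5, 15.9 and 13.99 FPKM at 3 months, 18.4, 23.5 and 20.3 FPKM at 19 months and 17.2, 15.7 and 16.5 FPKM at 24 months. Its log2 difference was 0.60 ± 0.16 at 19 against 3 months (limma adjusted p = 0.0782) and -0.31 ± 0.16 at 24 against 19 months (limma adjusted p = 0.457). Sc5d, a sterol desaturase, was at 19.4, 24.4 and 18.4 FPKM at 3 months, 26.8, 36.1 and 29.2 FPKM at 19 months and 23.4, 19.3 and 19.1 FPKM at 24 months. Its log2 difference was 0.54 ± 0.16 at 19 against 3 months (limma adjusted p = 0.0988) and -0.55 ± 0.16 at 24 against 19 months (limma adjusted p = 0.125), and 24 against 3 months gave -0.01.

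Hsd17b7, the keto-reductase that acts after Nsdhl, and Cyp51, the lanosterol demethylase, were lower in every 24-month library than in any 19-month library, by -0.59 ± 0.21 and -0.39 ± 0.18 (limma adjusted p = 0.250 and 0.375). Ebp, the sterol isomerase, had means of 56.8 ± 8.57 and 67.2 ± 0.720 FPKM at 3 and 19 months and libraries of 55.7 to 66.9 FPKM at 24 months, and Dhcr7, the reductase of the last step, of 48.2 ± 6.45, 55.4 ± 3.44 and 50.1 ± 5.10 FPKM. Tm7sf2, a sterol reductase, was the exception in this stretch, with its highest mean of 5.58 FPKM at 3 months and overlapping libraries throughout. Stard4, which carries cholesterol between membranes, was at 2.69, 3.73 and 3.76 FPKM at 3 months, 4.18, 4.79 and 5.57 FPKM at 19 months and 5.06, 4.68 and 4.85 FPKM at 24 months. All older libraries were above all 3-month libraries, with log2 differences of 0.42 ± 0.17 and 0.43 ± 0.17 (limma adjusted p = 0.258 and 0.168).

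Part of the spread of the sterol enzymes lay within an age. Replicate 2 of 3 months was the highest 3-month library for 12 of the 15, or 80.0%, against 39.0% of all genes, and replicate 1 of 3 months was the lowest of its age for 9 of the 10 fatty acid enzymes, against 41.9% of all genes. The mean log2(FPKM + 1) of the 15 sterol enzymes was 4.04, 4.39 and 4.12 in the 3-month libraries, 4.35, 4.49 and 4.35 at 19 months and 4.28, 4.08 and 4.04 at 24 months. Thus 1 young library reached the 19-month values and the other 2 did not. The 10 fatty acid enzymes gave 3.70, 3.97 and 4.02 at 3 months, 3.79, 3.93 and 3.69 at 19 months and 3.68, 3.55 and 3.53 at 24 months. All 24-month values were below all younger values, but 24-month replicate 2 at 3.68 lay only just under 19-month replicate 3 at 3.69. The mean over all genes tested stayed between 3.74 and 3.80, and 24-month replicate 2 had the lowest, 3.74. Over the fatty acid enzymes the median log2 change was 0.06 at 19 against 3, -0.24 at 24 against 3 and -0.18 at 24 against 19 months, and in 4 of 10 every 24-month library was below every 3-month library (Fasn, Acaca, Elovl5 and Elovl6, against 12.0% of all genes). The first of these medians was -0.10 without 3-month replicate 1, the next -0.15 without 24-month replicate 2, and the last -0.30 without 19-month replicate 1.

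**Figure D3:**
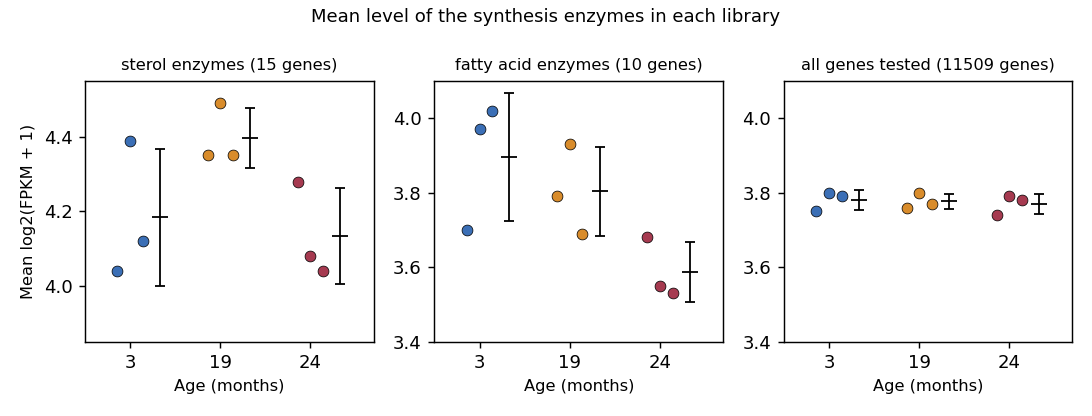
Mean log2(FPKM + 1) per library (vertical axis, not starting at 0, with the same span in each panel) against age in months, for 15 sterol enzymes, 10 fatty acid enzymes and all 11509 genes tested. Each point is 1 library, and bars are the mean ± SD over 3 libraries. The 19-month points of the sterol enzymes stand apart from most others. The 24-month points of the fatty acid enzymes are the lowest, the nearest at 3.68 beside a 19-month point at 3.69. All genes stay between 3.74 and 3.80.

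The 5 regulators had no call, and their medians were -0.14, -0.18 and -0.11 at 19 against 3, 24 against 3 and 24 against 19 months. With limma, 1, 1 and 0 of the 5 had unadjusted p under 0.05 (15.7%, 21.6% and 12.8% of all genes), Srebf1 in the 2 comparisons with 3 months. Srebf1, which encodes the SREBP that favours fatty acid genes, was at 11.1, 18.8 and 14.1 FPKM at 3 months, 14.3, 7.85 and 8.61 FPKM at 19 months and 9.44, 9.17 and 10.3 FPKM at 24 months. Its 24-month libraries were below those of 3 months (log2 difference -0.53 ± 0.21, limma adjusted p = 0.167), while 19-month replicate 1 lay within the range of 3 months. Srebf2, which favours sterol genes, stood at 7.71, 9.70 and 8.92 FPKM at 3 months, 9.19, 8.17 and 7.60 FPKM at 19 months and 9.57, 7.34 and 6.19 FPKM at 24 months. Its ages overlapped in all comparisons, and its log2 differences were -0.07, -0.18 and -0.11 with an SE of 0.17 each.

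Scap, the escort of the SREBPs, was at 13.4, 8.64 and 13.8 FPKM at 3 months, 9.24, 9.72 and 8.36 FPKM at 19 months and 10.02, 11.3 and 10.7 FPKM at 24 months. Every 24-month library was above every 19-month library (log2 difference 0.21 ± 0.17, limma adjusted p = 0.679). Insig1, itself an SREBP target, stood at 8.19, 8.04 and 6.76 FPKM at 3 months, 7.22, 7.06 and 6.25 FPKM at 19 months and 7.09, 5.72 and 5.44 FPKM at 24 months. The libraries of Insig1 overlapped between ages, with a log2 difference of -0.29 ± 0.16 at 24 against 3 months (limma adjusted p = 0.305). Insig2 was at 28.3, 34.6 and 30.2 FPKM at 3 months, 33.3, 33.3 and 38.7 FPKM at 19 months and 28.02, 32.1 and 29.1 FPKM at 24 months, with all 24-month libraries below those of 19 months (log2 difference -0.23 ± 0.13, limma adjusted p = 0.514).

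Another 38 genes of these pathways were listed by function, with earlier results of these data known, and all 38 were tested. At 19 against 3 months 5 of them fell and 0 rose, against 0.964% and 0.600% of all genes. At 24 against 3 months 3 fell and 0 rose, against 2.34% and 1.50% of all genes. In each of these comparisons 10 of 38 had unadjusted limma p under 0.05, or 26.3%, against 15.7% and 21.6% of all genes. At 24 against 19 months 0 passed limma's test, against 0.930% of all genes (2 had unadjusted p under 0.05, or 5.26%, against 12.8% of all genes). Scd1, the main stearoyl-CoA desaturase of skin, was at 38.1, 48.8 and 38.6 FPKM at 3 months, 18.7, 18.7 and 19.4 FPKM at 19 months and 17.5, 17.4 and 20.4 FPKM at 24 months. No older library of Scd1 reached a young one, and the fall held in the fit of all table entries (limma adjusted p = 0.0197 at 19 and 0.0276 at 24 months). Soat1, which esterifies cholesterol for storage, fell by 1.37 ± 0.23 and 1.41 ± 0.23 on the log2 scale (limma adjusted p = 0.0077 and 0.00496, and 0.102 and 0.0632 in the fit of all table entries). Elovl3, an elongase of sebaceous lipids, fell by 2.10 ± 0.47 and 2.16 ± 0.47 (limma adjusted p = 0.0373 and 0.0209, and 0.233 and 0.144 in the fit of all table entries). Soat1 and Elovl3 passed the filter of at least 1 FPKM in at least 3 libraries only through their 3-month values, which favoured a fall.

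At 19 months alone the calls also held Elovl4, an elongase of ultra-long chains for the skin barrier, and Elovl7, an elongase of saturated chains. Elovl4 fell by 0.75 ± 0.15 (limma adjusted p = 0.0189, and 0.112 in the fit of all table entries) and Elovl7 by 0.82 ± 0.19 (0.0397 and 0.141). At 24 against 3 months their log2 differences were -0.44 ± 0.15 and -0.53 ± 0.19 (limma adjusted p = 0.107 and 0.119). Of 22 genes of fatty acid oxidation, 21 were tested and 0 passed limma's test in any pairwise comparison, with median log2 changes of 0.13, 0.07 and -0.08. Unadjusted p was under 0.05 for 2, 3 and 1 of them, or 9.52%, 14.3% and 4.76%, against 15.7%, 21.6% and 12.8% of all genes.

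Markers of sebocytes, lipid-rich cells of the sebaceous gland beside the bulge, moved with age in the same libraries. Of 12 markers, 9 were tested. At 19 against 3 months 7 fell, as did 0.964% of all genes. At 24 against 3 months 7 fell and 1, Mgst1, rose (limma adjusted p = 0.0123, and 0.0807 in the fit of all table entries). There 2.34% of all genes fell and 1.50% rose. At 24 against 19 months 0 passed limma's test, against 0.930% of all genes. Mgst1 was higher in every 24-month library than in any 19-month library (limma adjusted p = 0.0621). The 7 were Scd1, Scd3, Far2, Elovl3, Cidea, Soat1 and Fa2h, of which Scd1, Elovl3 and Soat1 are also among the 38 pathway genes above. Scd3, Elovl3, Soat1 and Fa2h passed the filter of at least 1 FPKM in at least 3 libraries only through their 3-month values. The filter thus favoured a fall with age in these genes, and their calls are no independent support for it. In the fit of all table entries the limma adjusted p of these 7 lay between 0.0197 and 0.233 at 19 months and between 0.0276 and 0.144 at 24 months. Far2, which makes fatty alcohols for wax, stood at 6.42, 7.93 and 8.69 FPKM at 3 months, 0.420, 0.877 and 2.44 FPKM at 19 months and 1.17, 1.09 and 1.54 FPKM at 24 months. Of the defining markers, Awat1 lay between 0 and 1.007 FPKM and was listed at 0 in 4 libraries, Awat2 lay between 0.581 and 2.151 FPKM, and Elovl3 was at 4.36 to 11.6 FPKM at 3 months and at 0 to 3.73 FPKM later. Scd3 was at 1.38 to 3.50 FPKM at 3 months and at 0.209 to 0.772 FPKM later.

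The summed FPKM of the 12 markers was 253 to 326 at 3 months, 224 to 284 at 19 months and 343 to 459 at 24 months, most of it from Mgst1, a microsomal glutathione transferase. The part of sebocyte RNA in the changes of Fasn and of the other lipid genes was not tested. Of 7 adipocyte markers, 6 were below 1 FPKM in all libraries, and Adipoq and Plin1 were at or near 0 (at most 0.0296 and 0.0177 FPKM). Cidec was at 0.188, 0.128 and 0.309 FPKM and Fabp4 at 0.0669, 0.419 and 0.429 FPKM in the 3-month libraries, and both were listed at 0 in all 6 older libraries. The part of adipocyte RNA was not tested.

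**Figure D4:**
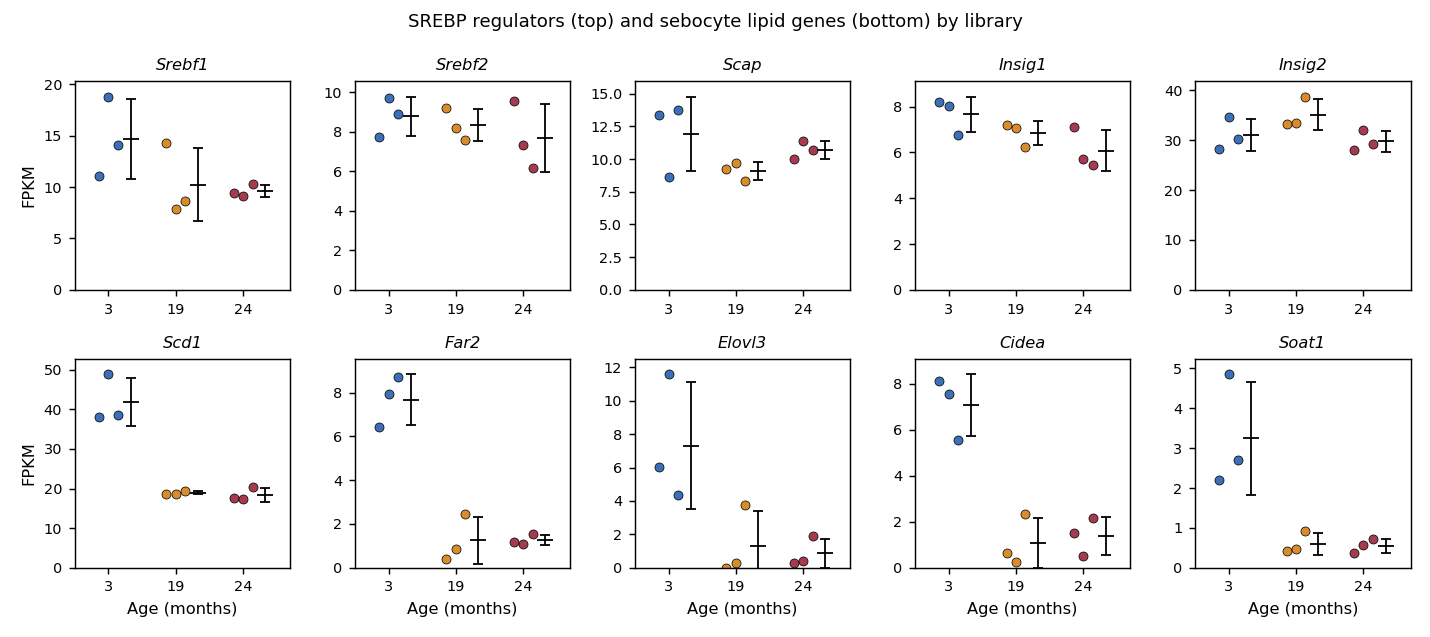
FPKM (vertical axis, from 0, with a range of its own in each panel) against age in months for the 5 regulators (top) and 5 sebocyte lipid genes (bottom). Each point is 1 library, and bars are the mean ± SD of 3 libraries, drawn from 0 where the mean minus the SD is negative. Ages overlap for Srebf2 and Insig1, while the 3-month points of Scd1, Far2, Cidea, Elovl3 and Soat1 lie above all older points.

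The sort was checked against its markers. Cd34 lay between 403 and 632 FPKM and Itga6, which encodes CD49f, between 72.7 and 116 FPKM in all libraries. Krt15, a bulge keratin, was listed at 0 in all 9, and since an exact 0 can be a failed estimate, nothing is said of its level. Of the 10 bulge markers tested, Sox9 and Nfatc1 rose at 19 against 3 months and Lgr5 fell at 24 against 3 months (limma adjusted p = 0.0348, 0.0264 and 0.00581, and 0.162, 0.162 and 0.0724 in the fit of all table entries). For this and the lists below, 1.56%, 3.84% and 0.930% of all genes passed at 19 against 3, 24 against 3 and 24 against 19 months. Markers of 3 other cell types had calls in the protein-coding fit, while those of differentiated epidermis (5 tested) and of fibroblasts (2 tested) had none. Both tested endothelial genes, Egfl7 and Ramp2, fell at 24 against 3 months, and 1 of 4 tested melanocyte genes fell at each older age against 3 months. Among these 4, Tyrp1 passed the filter only through its 3-month values, which favoured a fall. The other 3 endothelial markers, Pecam1, Cdh5 and Kdr, were below 1 FPKM in all 9 libraries. Summed endothelial markers were 11.8 to 14.2, 9.67 to 10.7 and 5.62 to 7.24 FPKM, and summed melanocyte markers 12.2 to 17.9, 6.54 to 8.45 and 4.19 to 9.20 FPKM. Summed markers of differentiated epidermis were far higher, at 351 to 407, 430 to 506 and 414 to 618 FPKM at 3, 19 and 24 months. Those of fibroblasts were 5.99 to 8.75, 10 to 12 and 9.42 to 16.7 FPKM. For both, every older sum was above every 3-month sum. Of 3 tested immune genes, 1, Fcer1g, fell at 19 against 3 months and rose at 24 against 19 months. The part of any of these other cell types in the results was not tested. By their labels the 3-month libraries were numbered 6058 to 6060 and the older ones, consecutively, 6067 to 6072, and 2 barcodes were used both at 3 months and later. Any effect of pool or preparation on the comparisons with 3 months cannot be told apart from age.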

How the data were processed

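The authors deposited 1 table of FPKM values per gene and library. Per the submitters' processing notes, TopHat, Cuffdiff and the build NCBIM37 were used (versions, settings and strand use: not given in the sources used here). Depth is unknown, since no value of a single read could be read off the low FPKM, so no per-read interval is given. FPKM summed to between 553388 and 738569 over protein-coding genes of a library, and the median of the genes tested was 10.01 to 11.29 FPKM. Over all table entries the sums were 68767512, 25022178 and 33108525 at 3 months. They were 12093462, 17446150 and 20767081 at 19 months, and 12234769, 8704872 and 20340643 at 24 months. Every 3-month sum was above every older one, and the part of this difference in the comparisons with 3 months was not tested.

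Gene types came from GENCODE M21 by Ensembl identifier (32916 of 37980 matched). Its build differs from that of the table, so coordinates are given only for the RefSeq promoters. Genes with at least 1 FPKM in at least 3 of the 9 libraries were tested with limma 3.58.1 in R 4.3.3, with a mean-dependent prior on log2(FPKM + 1) and a mean per age, two-sided, with Benjamini-Hochberg adjustment. Left out were 36 entries listed at 0 in every library of an age and at 5 FPKM or more in every library of another. The script was tested on simulated data. Across genes, the log2 values of 2 libraries of an age had a Pearson correlation of 0.977 to 0.986, and 0 pairs held identical columns.

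The members, the lists and the protein-coding fit were chosen with earlier results of these data known. Values in every library are given for members called in any test, the regulators, Hmgcs1, Sqle, Fasn and Acaca, and the 10 genes with the smallest F test p. Others are named with means, or where ages do not overlap. Alternatives were all table entries, other filters, a pseudocount of 0.1, 2 other scalings, a robust prior, only the 2 ages compared, a replicate block, and each library left out in turn.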

Additional observations from a re-analysis of the deposited data

How the results depend on the processing

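The number of genes of the pathway called was small in every fit. At 19 against 3 months it was 0, but 1 with a filter at 5 FPKM, with median-centred libraries, with a robust prior or with only the 2 ages compared (Fdps each time), and 0 to 1 when a library was left out. At 24 against 3 months it was 1, but 0 with all table entries, with all entries except those listed at 0, or with no filter, 3 with a robust prior (Elovl6, Fasn and Scd2), and 1 to 3 when a library was left out. At 24 against 19 months it was 0, but 1 with only the 2 ages compared (Elovl5), and 0 to 1 when a library was left out. The F test called 3, but 0 with all table entries, with all entries except those listed at 0, or with no filter, 1 with quantile normalisation (Fasn), 2 with a pseudocount of 0.1 (without Fdps) or median-centred libraries (without Scd2), 4 with a filter at 5 FPKM or a robust prior (with Elovl5), and 0 to 3 when a library was left out. Over all genes, the counts of 180, 442, 107 and 523 (19 against 3, 24 against 3, 24 against 19 months and F test) became 40, 29, 7 and 32 with all table entries, 27, 0, 0 and 0 with all entries except those listed at 0, and 53, 118, 0 and 59 with no filter. Quantile normalisation gave 59 at 24 against 19 months. Leaving out a library gave 46 to 231, 133 to 457, 20 to 214 and 181 to 544. Without 3-month replicate 2 the median log2 change of the sterol enzymes was 0.34 at 19 against 3 and 0.09 at 24 against 3 months (leave-one-out ranges 0.13 to 0.34 and -0.22 to 0.09). The cause of these shifts was not tested.

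Deviations of same-numbered libraries from the mean of their age correlated at 0.156, -0.164, 0.148, 0.093, 0.187, -0.174 and -0.197. Between ages, libraries with different numbers gave -0.23 to 0.164. Such values cannot tell whether a number marks a shared animal, litter or day. With the replicate number as a block, 2 genes of the pathway were called at 19 against 3 months (Fdps and Nsdhl), 1 at 24 against 3, 1 at 24 against 19 months (Scd2) and 3 in the F test, and the counts over all genes were 253, 158, 110 and 352. Under that block Stard4 had a log2 change of -0.09 and Srebf2 of 0.01 at 24 against 19 months.

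Small changes took the opposite sign in a few fits. At 24 against 3 months Sc5d gave 0.05 with median-centred libraries and 0.01 with quantile normalisation, and Insig2 gave 0.00 with median-centred libraries. At 24 against 19 months Stard4 gave -0.00 with quantile normalisation. When a library was left out, the sign also changed, within a range of -0.13 to 0.22 for Scd2, -0.08 to 0.25 for Elovl5 and -0.15 to 0.00 for Srebf2 at 19 against 3 months. At 24 against 3 months the ranges were -0.10 to 0.11 for Sc5d, -0.12 to 0.02 for Insig2 and -0.31 to 0.09 for Sqle. At 24 against 19 months they were -0.07 to 0.10 for Stard4, -0.19 to 0.21 for Srebf1 and -0.26 to 0.01 for Srebf2. Over the named genes, 582 values with other settings kept their side of the threshold and, outside the F test, their direction. Another 6 changed sign, 12 gained a call and 16 lost one. With a library left out the counts were 537 kept, 13 with a changed sign, 10 calls gained and 16 lost. Nearly all kept values had no call in the main fit, so these counts do not show that the calls are stable. With 3 libraries an age and unknown depth, small differences in genes of a few FPKM were not resolvable.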
